A study of Mus musculus with 24 samples.

Results

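The genes described are those of oxidative phosphorylation, the process that makes ATP in mitochondria, and they come from both genomes of the mouse cell. Members were every protein-coding gene of the mitochondrial chromosome and every nuclear gene whose symbol names a subunit family (Nduf for complex I, Sdh for complex II, Uqcr for complex III, Cox4 to Cox8 for complex IV, Atp5 for ATP synthase), with symbols marked as pseudogenes left out. This rule used symbols and chromosomes, not measured values, and it found 110 of the 41388 genes counted: 13 mitochondrial and 97 nuclear genes. Of the nuclear members, 93 were annotated as protein coding and 4 (Ndufs6b, Cox6c2, Ndufb4c and Ndufa11b) as processed pseudogenes whose symbols carry no mark of it. By complex, 41 nuclear members belonged to complex I, 8 were complex I assembly factors (Ndufaf), 4 belonged to complex II, 8 to complex III, 19 to complex IV and 17 to ATP synthase. The mitochondrial members were 7 subunits of complex I, 1 of complex III, 3 of complex IV and 2 of ATP synthase. Some symbols sit apart from their family: Ndufa4 is now seen as a subunit of complex IV, and Cyc1, a complex III subunit, is not reached by the rule. Cox7a2l has been linked to the joining of complexes III and IV into supercomplexes, which were not measured here.

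RNA was sequenced from livers of male mice in a 2-by-2 design of genotype and diet. WT mice (labelled Wildtype Control) were littermates homozygous for the floxed Lpin1 allele without Cre, and Adn-Lpin1-/- mice (labelled Adipocyte Lpin1 Knockout) carried the same floxed alleles with Cre driven by the adiponectin promoter, on a C57BL/6J background. Feeding began at 8 weeks of age with a low-fat diet (LFD, 10% fat) or a high-fat diet (HFD, 60% fat), and a 4 h fast came before the livers were collected. The labels give 16 weeks of feeding and the study's methods 5 weeks, so the duration is uncertain. Each of the 4 groups held 5 single mice (n = 5 unless stated) and 1 pool of the same 5 livers, so the tests used the 20 single-mouse libraries. Lpin1 was deleted in adipocytes, not in the liver cells sampled, so its liver level is no check of the labels. The 20 libraries held 36260187 to 81072794 counts, lowest in WT mice on the LFD (up to 45999456). TMM scaling factors, which adjust each library's total for its composition, were 0.931 to 0.993 in WT and 0.989 to 1.09 in Adn-Lpin1-/- mice. The 6 hepatocyte markers summed to at least 79759 CPM (counts scaled to a library of 1e6) in every library.

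Complexes I, III and IV pump protons across the inner mitochondrial membrane as electrons pass to oxygen, and ATP synthase lets the protons flow back to make ATP. Complex II, which also works in the citric acid cycle, is the only complex encoded wholly in the nucleus. In the others, subunits made inside mitochondria from polycistronic mitochondrial transcripts join nuclear subunits imported from the cytosol, so that each complex draws on both genomes. The liver is rich in mitochondria and uses this machinery to burn fatty acids and to power gluconeogenesis and urea synthesis.

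The mitochondrial genes took far more of the liver's counts than the nuclear members did, and the groups overlapped in both shares. The 13 mitochondrial genes held 7.04% of all counts over the 20 mice, and the 97 nuclear members together held 1.19%. By group, the mitochondrial share was 7.08% ± 0.511 (SD) in WT mice on the LFD, 7.14% ± 0.797 in Adn-Lpin1-/- mice on the LFD, 7.01% ± 0.343 in WT mice on the HFD and 6.94% ± 0.272 in Adn-Lpin1-/- mice on the HFD. The lowest mouse was at 6.32% (WT, LFD) and the highest at 8.28% (Adn-Lpin1-/-, LFD), and all groups overlapped. The nuclear share was 1.19% ± 0.0346, 1.22% ± 0.0557, 1.13% ± 0.0316 and 1.20% ± 0.0286 in the same order, between 1.10% and 1.29% in single mice, and again all groups overlapped. On the HFD, Adn-Lpin1-/- mice differed from WT mice in the nuclear share by 0.0678 percentage points (pooled SD 0.0301), at 1.17% to 1.24% against 1.10% to 1.18%. In WT mice the HFD differed from the LFD by -0.0573 points (pooled SD 0.0331). The other differences in either share were smaller than their pooled SDs. The nuclear share varied less between mice, with a coefficient of variation over all 20 of 4.04% against 6.89% for the mitochondrial share. Because a share needs no scaling between libraries, it differs from the scaled values below by the TMM factors.

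The ratio of mitochondrial to nuclear counts within a library needs no scaling between libraries, but it holds only reads placed uniquely. It averaged 5.94 ± 0.399 in WT mice on the LFD, 5.87 ± 0.573 in Adn-Lpin1-/- mice on the LFD, 6.18 ± 0.418 in WT mice on the HFD and 5.77 ± 0.300 in Adn-Lpin1-/- mice on the HFD. On the log2 scale, Adn-Lpin1-/- mice differed from WT mice by -0.02 on the LFD (pooled SD 0.122) and by -0.10 on the HFD (pooled SD 0.0877). The HFD differed from the LFD by 0.06 in WT and by -0.02 in Adn-Lpin1-/- mice (pooled SDs 0.0976 and 0.114). Only the HFD difference between genotypes exceeded its pooled SD, and there too the mice overlapped (5.75 to 6.75 in WT, 5.28 to 6.08 in Adn-Lpin1-/-). These livers are bulk samples, so fewer cells of a type and less RNA per cell cannot be told apart in any value here.

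**Figure D1:**
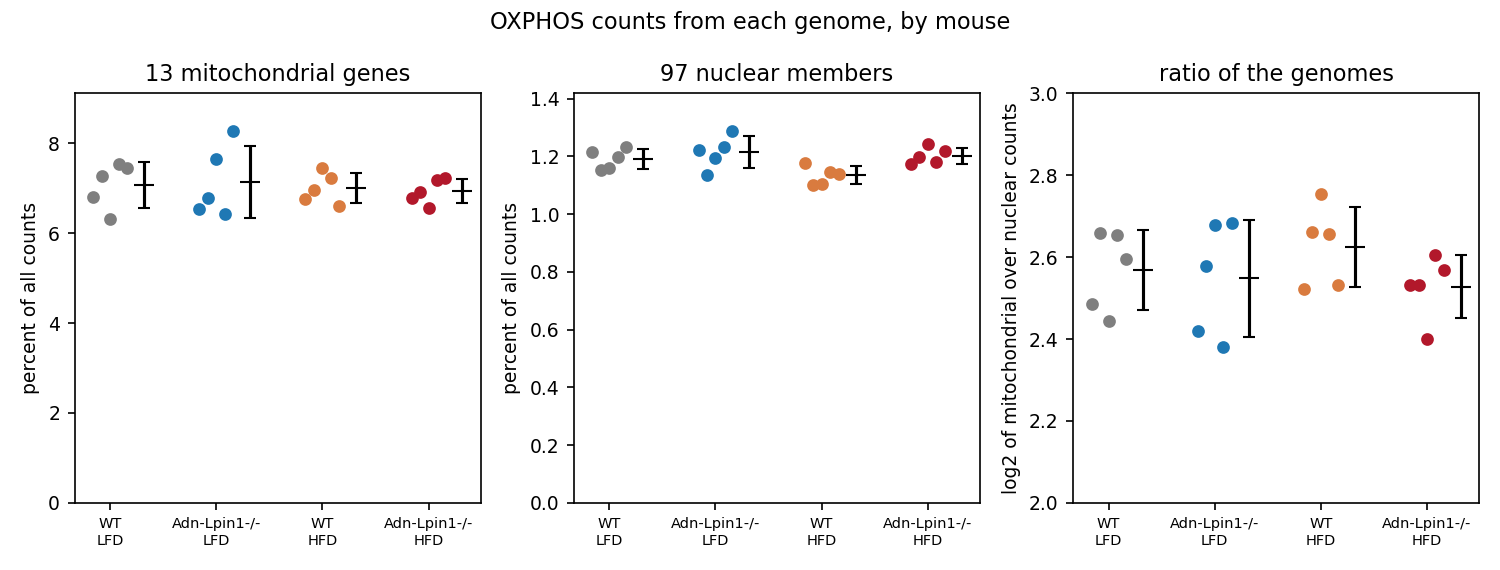
Share of all counts held by the 13 mitochondrial genes (left, percent) and the 97 nuclear members (middle, percent), and log2 of their ratio (right, axis from 2 to 3), for each of 5 mice per group. Points are mice and bars are the mean with SD; the groups overlap in every panel.

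Within the mitochondrial genome the counts were very uneven. In all, 95.9% of the mitochondrial counts came from 6 genes: mt-Co1 26.9%, mt-Cytb 24.6%, mt-Nd2 13.5%, mt-Nd1 10.7%, mt-Nd5 10.6% and mt-Nd4 9.59%. Per length, in CPM per kb of gene averaged over 20 mice, mt-Cytb of complex III was highest at 15212, followed by mt-Co1, the catalytic core of complex IV, at 12356. The complex I genes mt-Nd2 (9196), mt-Nd1 (7944), mt-Nd4 (4926), mt-Nd5 (4113) and mt-Nd6 (3884) came next. mt-Nd6 is the one protein gene coded on the opposite strand, and no source used here states whether the reads were counted by strand. The remaining 6 genes were far lower on this scale. They were mt-Atp6 at 418 and mt-Atp8 at 135 (ATP synthase), mt-Co2 at 379 and mt-Co3 at 282 (complex IV), and mt-Nd4l at 228 and mt-Nd3 at 63.9 (complex I).

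The nuclear genome holds annotated copies of mitochondrial sequence, and the authors counted reads that aligned to 1 place only and overlapped 1 gene only. For 5 of the low genes, 98.0% to 100% of their 50-base stretches also occurred in another annotated gene (mt-Co2 100%, mt-Co3 99.9%, mt-Atp6 99.5%, mt-Nd4l 98.8% and mt-Nd3 98.0%). Their levels ran from 63.9 to 418 CPM per kb. Of the 6 genes with under 10% shared stretches, 5 stood at 3884 or above and 1, mt-Atp8, at 135. mt-Atp8 overlaps mt-Atp6 at its end, where a read cannot be given to 1 gene. Sharing was counted against annotated genes only. mt-Atp8 starts between mt-Co2 and mt-Atp6, and the chromosome 1 copies of those genes, Gm28661 and Gm10925, lie 233 bases apart. The sequence between these copies was not compared, so the sharing of mt-Atp8 may be understated. mt-Co1 (51.1% shared) and mt-Nd4 (62.2%) lay between in sharing. This describes 13 genes, and the part of shared sequence in their levels was not tested.

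The copies are shown here because 2 of them are identical in these stretches to mitochondrial genes, so a read from either place fits both. The first pair is mt-Co2 at chrM:7303-7402 on the plus strand and its copy Gm28661 at chr1:24615176-24615275 on the minus strand (GRCm38). The 681 aligned bases of the genes were all identical, and nothing differs in these 100 bases.
mt-Co2: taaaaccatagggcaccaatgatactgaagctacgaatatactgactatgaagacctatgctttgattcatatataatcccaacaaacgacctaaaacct
Gm28661: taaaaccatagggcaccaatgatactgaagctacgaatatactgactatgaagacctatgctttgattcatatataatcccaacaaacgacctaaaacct
The second pair is mt-Nd3 at chrM:9583-9682 and its copy Gm28438 at chr1:24612896-24612995 on the minus strand, which matched at 344 of 345 aligned bases over the whole genes.
mt-Nd3: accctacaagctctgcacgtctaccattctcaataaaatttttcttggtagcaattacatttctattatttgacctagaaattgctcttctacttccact
Gm28438: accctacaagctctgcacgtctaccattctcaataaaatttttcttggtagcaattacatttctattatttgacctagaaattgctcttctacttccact
The third pair shows a more diverged copy, mt-Nd2 at chrM:4672-4771 and Gm13339 at chr2:22590204-22590303 on the minus strand, where 6 of the 100 bases differ (in capitals) and 96.7% of 510 aligned bases were identical.
mt-Nd2: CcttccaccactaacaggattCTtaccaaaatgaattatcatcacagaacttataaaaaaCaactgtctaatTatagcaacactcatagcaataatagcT
Gm13339: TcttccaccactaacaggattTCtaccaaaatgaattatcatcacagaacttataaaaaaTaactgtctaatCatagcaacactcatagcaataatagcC
Of the 13 annotated copies, 7 lie side by side at chr1:24611535-24616197, a run of 4663 bases. All 13 copies held on average 157401 counts per library, which is 4.04% of the counts of the mitochondrial genes. The copies of highly shared genes held counts of the same order as the genes themselves: Gm28661 averaged 14284 counts against 14415 for mt-Co2, Gm28438 averaged 1303 against 1209 for mt-Nd3, and Gm10925 averaged 27573 against 15866 for mt-Atp6. Values of these 5 genes are therefore uncertain in level, and that of mt-Atp8 may be so too. The mitochondrial share and the ratio of the genomes may likewise be understated. With only the 6 mitochondrial genes under 10% shared as numerator, the ratio averaged 3.59 in WT and 3.72 in Adn-Lpin1-/- mice on the LFD. On the HFD it averaged 3.88 in WT and 3.62 in Adn-Lpin1-/- mice.

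**Figure D2:**
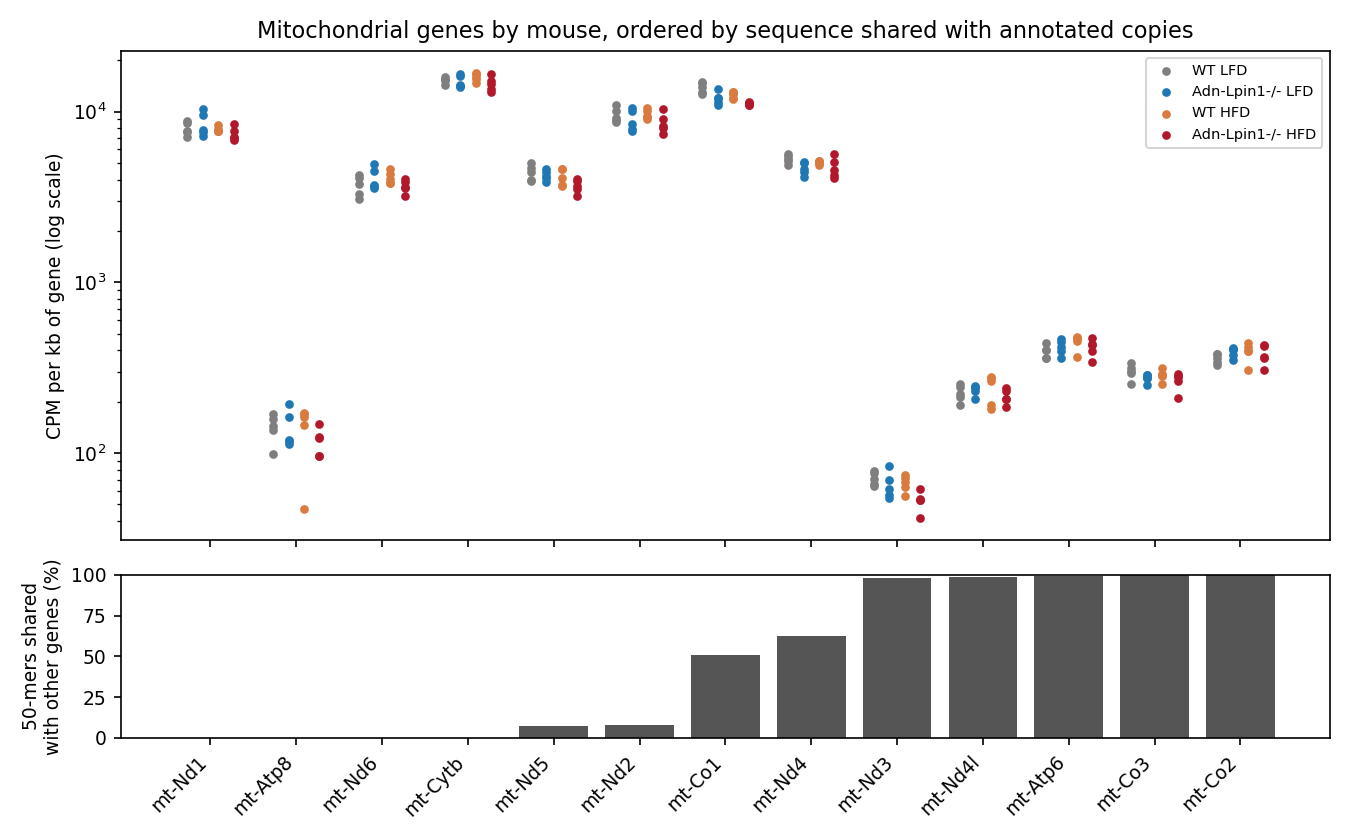
Upper panel: level of each mitochondrial protein gene in CPM per kb of gene (log axis), each point 1 mouse and each color 1 of the 4 groups. Lower panel: percent of the gene's 50-base stretches that also occur in another annotated gene; the 5 genes at 98.0% or more sit between 63.9 and 418 CPM per kb on average.

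The nuclear members lay well below the mitochondrial genes and spread over their complexes. Per length, the 90 nuclear members that passed the limit on counts had a median of 64.5 CPM per kb, against 3884 for the 13 mitochondrial genes. None reached the mitochondrial median, and 7 mitochondrial genes stood above the highest nuclear member, Cox6a1 at 474 CPM per kb. The length used covers all annotated exons of a gene and can exceed any 1 transcript. Ndufs1, for example, has 8086 exonic bases but only 2612 distinct 50-base stretches in its longest transcript. Levels per length of such nuclear members may thus be too low. The part of this in the gap between the genomes and in the order of members was not tested. In complex I, the 40 tested members had a median of 51.2 CPM per kb, with Ndufa4 highest (351). Ndufb2 was lowest (1.51), and 447 of its 5628 exonic bases were also exonic in Adck2, Gm16272 or Braf, where a read that overlaps several genes is not assigned. The 8 assembly factors, which help build complex I but are not part of it, were lower (median 9.74, from Ndufaf5 at 1.97 to Ndufaf8 at 15.8). In all, 21 of the 97 nuclear members shared exonic bases with another gene, and 3 (Ndufaf2, Cox6c2 and Ndufb4c) shared over 50% of their 50-base stretches with other genes, so these levels are uncertain.

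The 4 complex II genes had similar levels per length: Sdha, the flavoprotein that oxidizes succinate, was at 123 CPM per kb, the membrane anchor Sdhd at 113, the iron-sulfur subunit Sdhb at 99.9 and the anchor Sdhc at 51.8. In complex III the median was 146, from Uqcrc2 (74.1), a core subunit, to Uqcr11 (248). The 13 tested members of complex IV had a median of 134, with Cox6a1 highest and Cox7a1 lowest (3.44). The 17 ATP synthase members had a median of 115, from Atp5a1, the catalytic-head alpha subunit, at 315 to Atp5s, a coupling factor that is not a structural subunit, at 2.75. Atp5a1 and Atp5b, the beta subunit, held 8.28% and 8.05% of the nuclear members' counts, and the 6 members with most counts together held 28.8%. The nuclear counts were thus spread more evenly over their genes than the mitochondrial counts.

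Where a subunit has several tissue forms, the broadly used form was the one seen in these livers. Cox4i1, Cox6a1, Cox6b1, Cox7a2, Cox7b, Cox8a and Ndufa4, the forms that most tissues use, stood at 214, 474, 380, 134, 113, 339 and 351 CPM per kb. Their heart, muscle, lung or testis counterparts were at or near 0: Cox4i2 had 126 reads over all 20 mice, Cox6a2 114, Cox6b2 257 and Cox8b 38. Cox7b2 and Cox8c had 0 reads in all 20 mice. Cox7a1, the heart and muscle form of Cox7a2, was detected with 1422 reads in all, and Cox7a2 was 39.0 times higher per length. Ndufa4l2, a hypoxia-induced relative of Ndufa4, had 2894 reads and stood at 2.75 CPM per kb. The limit for testing, more than 1 CPM in at least 4 libraries, was not passed by 7 nuclear members (Cox4i2, Cox7b2, Cox6b2, Cox6a2, Cox8b, Cox8c and Ndufa11b).

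Summed over each complex on TMM-scaled libraries, the nuclear members of ATP synthase stood at 4423 ± 142 CPM in WT mice on the LFD, 4187 ± 163 in Adn-Lpin1-/- mice on the LFD, 4143 ± 153 in WT mice on the HFD and 3977 ± 93.4 in Adn-Lpin1-/- mice on the HFD. Complex I was at 3459 ± 120, 3323 ± 155, 3303 ± 166 and 3208 ± 204 CPM in the same order, and complex IV at 1959 ± 79.0, 1907 ± 116, 1780 ± 117 and 1762 ± 136 CPM. Complex III was at 1546 ± 48.0, 1457 ± 68.7, 1427 ± 50.8 and 1382 ± 80.6 CPM. Each of these sums was highest in WT mice on the LFD and lowest in Adn-Lpin1-/- mice on the HFD, and neighbouring groups overlapped. That order holds on this scaling, whereas the nuclear share of all counts, given above, was ordered differently. Complex II kept a narrow range, with group means of 998 to 1046 CPM. The assembly factors were at 106 ± 4.56 and 99.5 ± 6.06 CPM in WT and Adn-Lpin1-/- mice on the LFD and at 106 ± 3.84 and 97.5 ± 4.57 CPM on the HFD, where the mice did not overlap (103 to 111 against 91.0 to 102 CPM). This gap in the assembly factors holds on TMM scaling only. On the HFD the factors were 0.944 to 0.993 in WT and 0.989 to 1.09 in Adn-Lpin1-/- mice. On library totals without TMM the mice overlapped. Sums over members carry no test here.

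**Figure D3:**
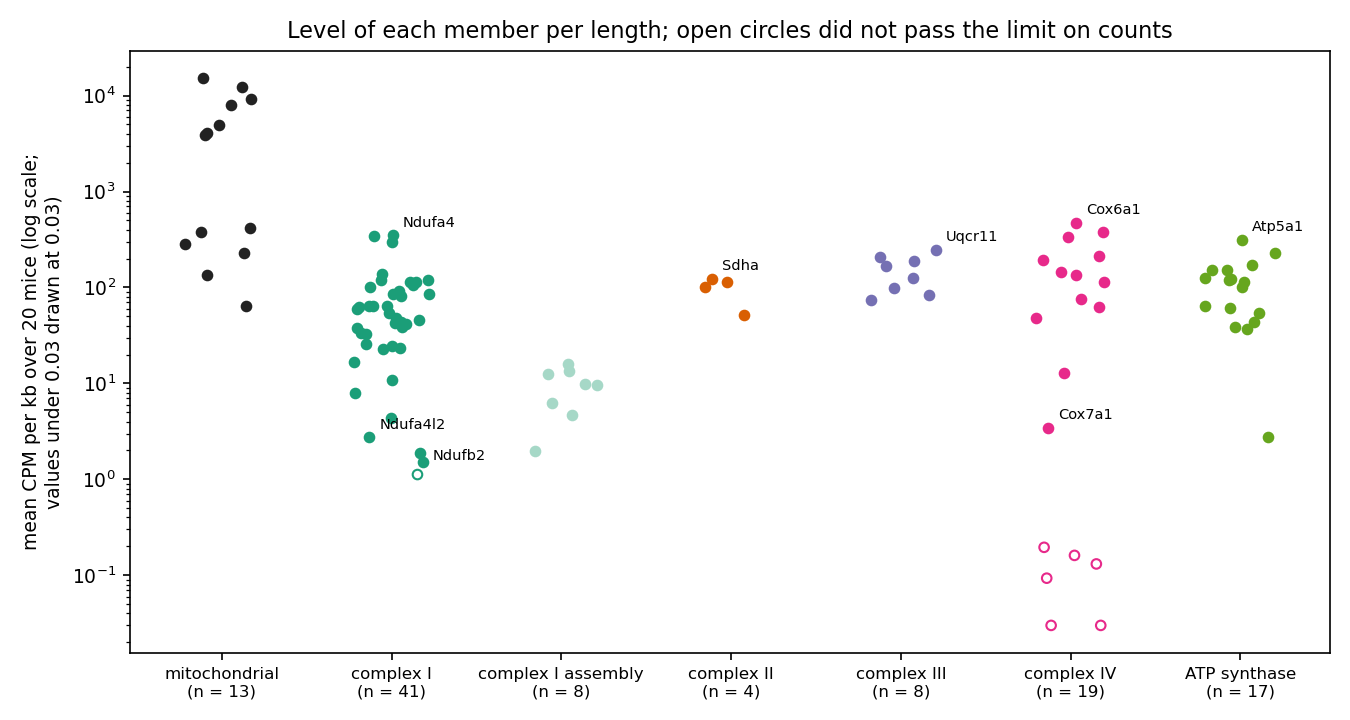
Mean level over 20 mice of each member in CPM per kb of gene (log axis; values under 0.03 are drawn at 0.03), by complex for nuclear members, with all mitochondrial genes in the first column. Open circles are the 7 members that did not pass the limit on counts; 7 mitochondrial genes lie above Cox6a1 at 474.

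To see how loss of adipocyte Lpin1 related to these genes in liver, Adn-Lpin1-/- mice were compared with WT mice on each diet in 1 edgeR quasi-likelihood fit over 13052 genes. A gene was called at a Benjamini-Hochberg adjusted p at or below 0.05 over all genes tested, and p-values measure the spread between these mice. On the LFD, 1 of 90 nuclear members was called (Cox7a1, higher) and 0 of 13 mitochondrial genes. Over all genes tested, 14.4% were called in this comparison. At an unadjusted p under 0.05 there were 12 nuclear and 2 mitochondrial members, beside 28.9% of all genes. DESeq2's Wald test called 2 nuclear members and 1 mitochondrial gene beside 17.2% of all genes, and limma's voom with quality weights, the study's kind of test, called 7 and 1 beside 16.99%. Medians of the log2 fold changes were -0.06 over the nuclear and -0.02 over the mitochondrial members beside 0.01 over all genes. On library totals without TMM, where the median of all genes moved by 0.09, they were 0.03 and 0.07, so the sign of both medians depended on the scaling. The summed level of the 6 hepatocyte markers was lower in every Adn-Lpin1-/- mouse than in any WT mouse on the LFD and overlapped on the HFD: it was 109103 to 117782 CPM in WT and 79759 to 105264 CPM in Adn-Lpin1-/- mice on the LFD, and 102393 to 126937 against 83156 to 109582 CPM on the HFD. Alb made up most of this sum (75160 to 86432 CPM in WT mice on the LFD). Tested singly in the same fit, Serpina1a was called lower on the LFD (adjusted p = 0.0225). On the HFD Alb, Apoa1, Cps1, Serpina1a and Cyp2e1 were called lower (adjusted p up to 0.0386). Ttr was called on neither diet. The part of these markers in the members' values was not tested.

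Cox7a1 (chr7:30184144-30186078, plus strand), whose product takes the place of Cox7a2 in complex IV of heart and muscle, was at 0.566, 1.37, 0.536, 1.22 and 1.13 CPM in the 5 WT mice on the LFD. In the Adn-Lpin1-/- mice on the LFD it was at 1.36, 1.77, 1.72, 1.88 and 1.69 CPM. The lowest Adn-Lpin1-/- mouse lay just under the highest WT mouse, so the groups overlapped by 1 mouse. The fitted log2 fold change was 0.79 (SE 0.24, 95% CI 0.29 to 1.29, adjusted p = 0.0318). It was called in the tests named above, but lost the call in 6 fits that left out 1 mouse on the LFD, WT mouse 1 or 3 or Adn-Lpin1-/- mouse 2, 3, 4 or 5. The weakest, without WT mouse 3, gave 0.64 with an adjusted p of 0.0866. On the HFD it was at 1.37, 0.728, 0.934, 0.808 and 0.873 CPM in WT and 1.39, 1.57, 1.09, 1.66 and 1.39 CPM in Adn-Lpin1-/- mice, a log2 fold change of 0.59 (adjusted p = 0.0856).

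Markers of other cells that express Cox7a1 were examined beside it. The 5 skeletal muscle markers summed to at most 0.360 CPM in every mouse, and Ucp1, the uncoupling protein of brown fat, was at most 0.104 CPM. The 4 brown or beige fat markers summed to 68.1 to 221 CPM in WT and 136 to 214 CPM in Adn-Lpin1-/- mice on the LFD, mostly Elovl3, which liver also expresses. Of them Cidea, a lipid droplet protein that fatty liver also expresses, was at 0 to 0.0986 CPM in WT and at 0.114 to 24.4 CPM in Adn-Lpin1-/- mice on the LFD (log2 fold change 8.45, adjusted p = 0.00643). The 4 smooth muscle markers summed to 4.59 to 9.90 CPM in WT and 9.36 to 13.3 CPM in Adn-Lpin1-/- mice on the LFD, and the 5 stellate cell markers to 77.0 to 145 against 150 to 283 CPM. Of the stellate cell markers Dcn, Col1a1 and Pdgfrb were called higher on the LFD, and Lrat and Reln were not (adjusted p = 0.383 and 0.315). On the HFD both sums overlapped. The stellate sum was 130 to 187 CPM in WT and 148 to 287 CPM in Adn-Lpin1-/- mice, and the smooth muscle sum 8.05 to 10.8 against 7.96 to 18.5 CPM. The part of these cells in the Cox7a1 result was not tested.

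The mouse groups did not overlap for 2 nuclear members on the LFD, Atp5g1 and Sdhc, beside 10.1% of all genes tested. Atp5g1, one of 3 genes for the same c subunit of ATP synthase, averaged 217 ± 12.2 CPM in WT and 180 ± 17.8 CPM in Adn-Lpin1-/- mice (log2 fold change -0.26, adjusted p = 0.0585). Sdhc averaged 174 ± 4.86 CPM in WT and 163 ± 2.19 CPM in Adn-Lpin1-/- mice (log2 fold change -0.10, adjusted p = 0.221). Neither passed the threshold. Among the mitochondrial genes the lowest adjusted p was that of mt-Co1, which averaged 21369 ± 1516 CPM in WT and 18481 ± 1555 CPM in Adn-Lpin1-/- mice (log2 fold change -0.21, adjusted p = 0.0599).

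**Figure D4:**
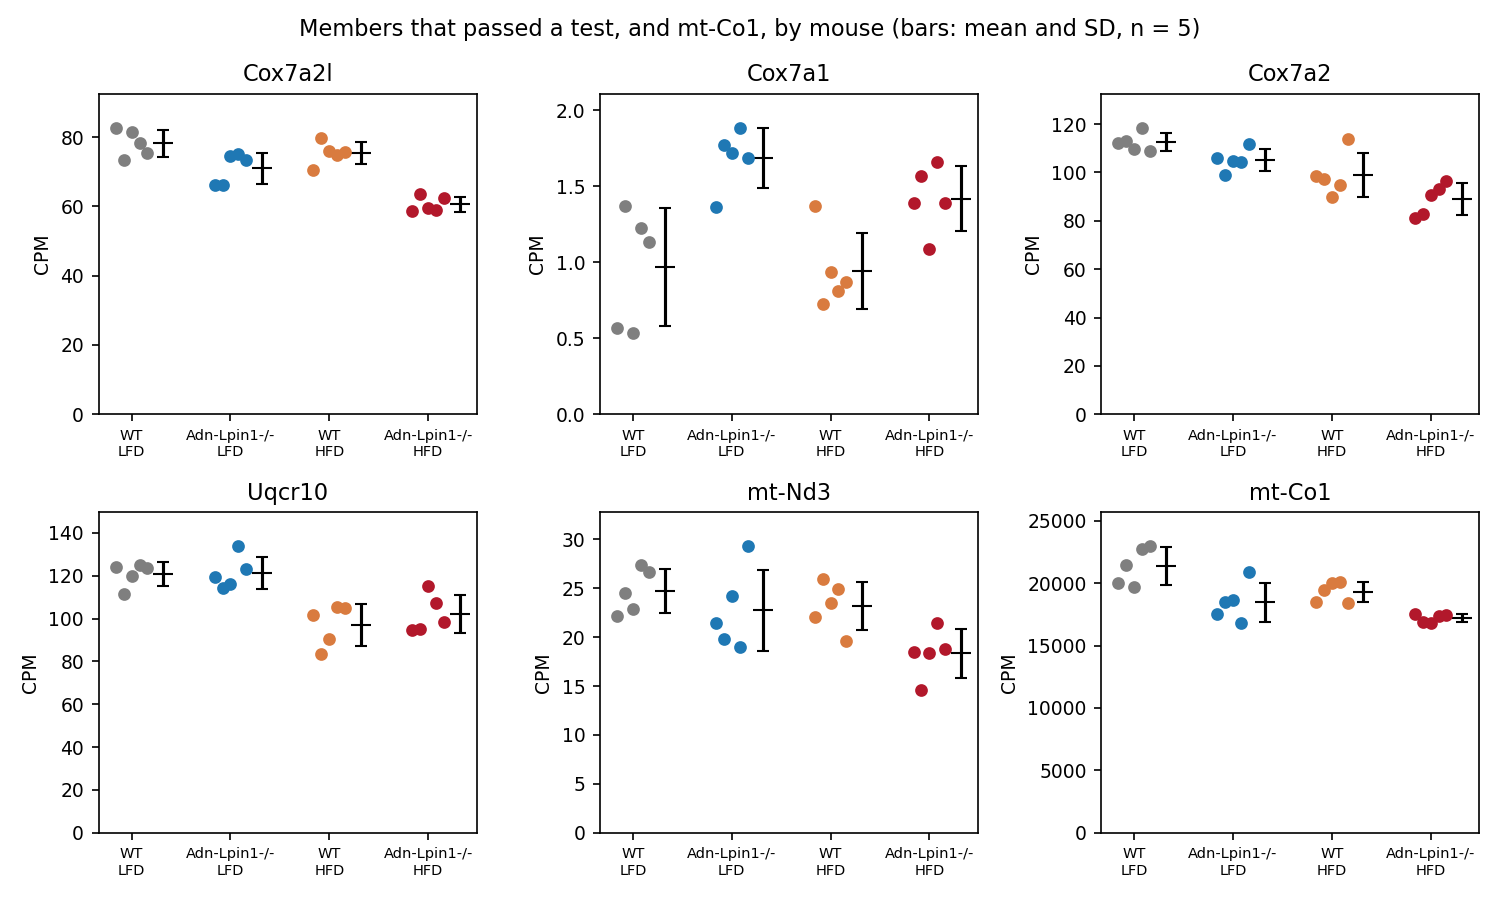
CPM by mouse for the 5 members that passed a test in any comparison and for mt-Co1, in the 4 groups of 5 mice. Points are mice, bars are the mean and SD and all axes start at 0; Cox7a2l in Adn-Lpin1-/- mice on the HFD lies below every other group.

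On the HFD, Cox7a2l was the nuclear member called lower in Adn-Lpin1-/- mice (1 of 90), and mt-Nd3 the mitochondrial gene called lower (1 of 13), beside 18.6% of all genes tested. At an unadjusted p under 0.05 there were 10 nuclear and 2 mitochondrial members, beside 33.2% of all genes. DESeq2's Wald test called 5 nuclear and 2 mitochondrial members beside 22.3% of all genes, and voom 1 and 1 beside 18.7%. Cox7a2l (chr17:83501918-83517330, minus strand) was at 70.5, 79.6, 75.9, 74.9 and 75.8 CPM in WT and at 58.8, 63.5, 59.4, 59.0 and 62.3 CPM in Adn-Lpin1-/- mice. Every Adn-Lpin1-/- mouse lay below every WT mouse. The log2 fold change was -0.31 (SE 0.05, 95% CI -0.42 to -0.20, adjusted p = 0.000666), and it was called lower under each alternative tried, with an adjusted p of at most 0.00292 when any single mouse was left out. On the LFD it was at 82.7, 73.4, 81.4, 78.4 and 75.4 CPM in WT and 66.2, 66.1, 74.5, 75.0 and 73.4 CPM in Adn-Lpin1-/- mice, where the groups overlapped and the log2 fold change was -0.14 (adjusted p = 0.0843). The difference of the genotype effect between diets was -0.17 (unadjusted p = 0.031, adjusted p = 0.660), so the effects on the 2 diets were not shown to differ. Of its 50-base stretches, 17.7% also occur in Gm6969.

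mt-Nd3 (chrM:9459-9806, plus strand), a small core subunit of complex I, was at 22.01, 25.9, 23.5, 24.9 and 19.6 CPM in WT and at 18.4, 14.6, 18.4, 21.5 and 18.8 CPM in Adn-Lpin1-/- mice on the HFD. The groups overlapped. Its log2 fold change was -0.34 (SE 0.12, 95% CI -0.58 to -0.10, adjusted p = 0.0455), close to the threshold. This is the gene nearly identical to Gm28438 shown above, and with the counts of annotated copies added it was still -0.34 but with an adjusted p of 0.132. With a trend on GC content removed the value was -0.09 (adjusted p = 0.493). The call was also lost without WT mouse 1, 2, 3 or 4 or Adn-Lpin1-/- mouse 1, 2, 3 or 5 on the HFD, and without Adn-Lpin1-/- mouse 3 on the LFD (adjusted p up to 0.131).

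All 13 mitochondrial genes had a fitted value below 0 on the HFD, from -0.34 to -0.06 with a median of -0.16, against a median of -0.04 over the nuclear members and 0.00 over all genes. These genes are read from shared transcripts and share each library's scaling, so they are not independent. On library totals without TMM, where the median of all genes moved by 0.13, the mitochondrial median was -0.03 and the nuclear one 0.08, and with the GC trend removed the mitochondrial median was 0.05. The direction of the mitochondrial genes as a group therefore depended on the processing. mt-Co1 was the mitochondrial gene whose mice did not overlap: it averaged 19284 ± 819 CPM in WT and 17229 ± 338 CPM in Adn-Lpin1-/- mice (log2 fold change -0.16, adjusted p = 0.126). The nuclear members that did not overlap were Cox7a2l and Atp5g2 (log2 fold change -0.16, adjusted p = 0.0581), beside 11.4% of all genes tested. None of the 4 complex II genes was called, and the lowest of their values was -0.10 (Sdhd).

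**Figure D5:**
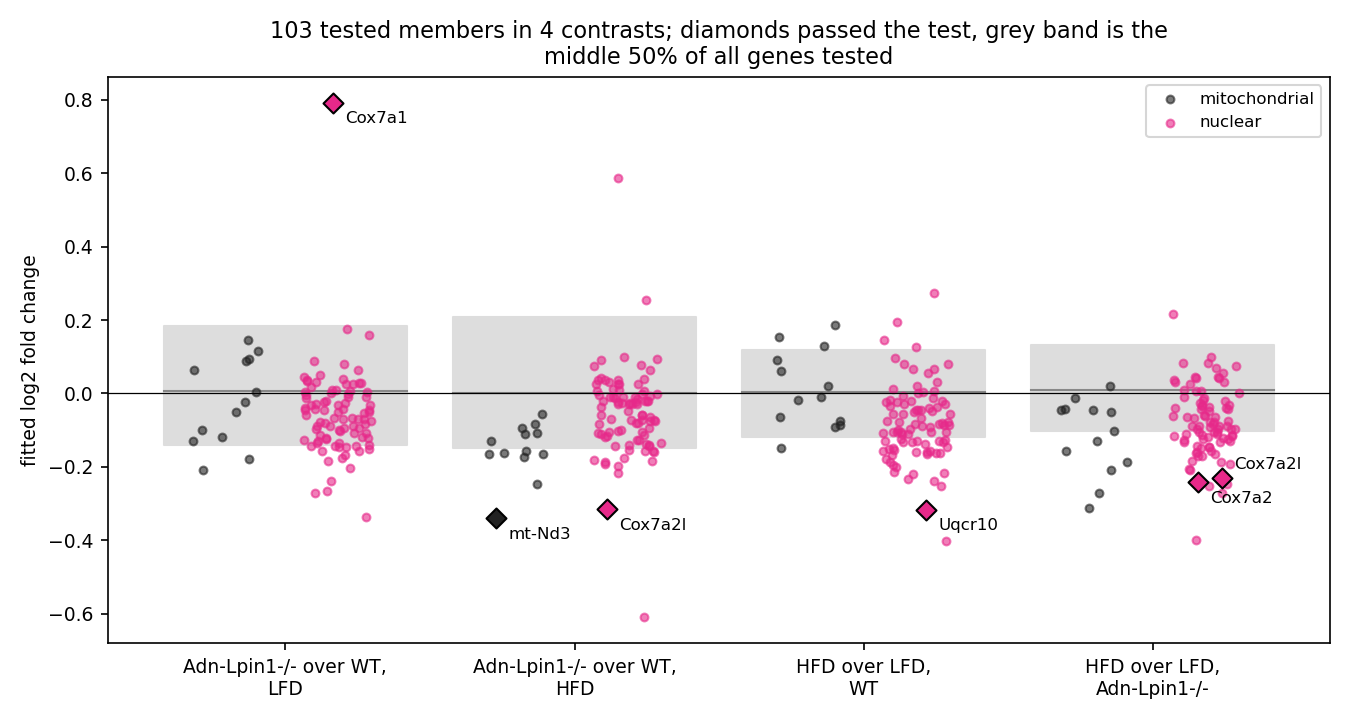
Fitted log2 fold change of the 13 mitochondrial and 90 nuclear members tested, in the 4 pairwise contrasts. Each point is a gene, diamonds passed the test, and the grey band holds the middle 50% of all 13052 genes; on the HFD all 13 mitochondrial points lie below 0, from -0.34 to -0.06.

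Diet was compared within each genotype in the same fit. These comparisons share groups with the genotype comparisons, so the values are given side by side and not correlated. In WT mice the HFD was accompanied by 1 called nuclear member, Uqcr10, lower, and by no mitochondrial one (0 also at an unadjusted p under 0.05, which 15.8% of all genes passed), beside 1.10% of all genes tested. DESeq2's Wald test called 2 nuclear members beside 3.06% of all genes and voom 6 beside 5.13%, and neither called a mitochondrial gene. Uqcr10 (chr11:4701973-4704342, minus strand), a small subunit of complex III, was at 124, 112, 120, 125 and 124 CPM on the LFD and at 102, 83.3, 90.4, 105 and 105 CPM on the HFD. The groups did not overlap, and the log2 fold change was -0.32 (SE 0.07, 95% CI -0.47 to -0.16, adjusted p = 0.0354). The call was lost in 7 fits, those without WT mouse 1, 2, 3 or 4 on the LFD or WT mouse 1, 2 or 3 on the HFD, with adjusted p-values of up to 0.118. In Adn-Lpin1-/- mice Uqcr10 was at 119, 114, 116, 134 and 123 CPM on the LFD and at 94.9, 95.1, 115, 107 and 98.6 CPM on the HFD (log2 fold change -0.25, adjusted p = 0.0785).

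In Adn-Lpin1-/- mice the HFD was accompanied by 2 called nuclear members, Cox7a2 and Cox7a2l, both lower, and by no mitochondrial one (2 at an unadjusted p under 0.05, beside 16.1% of all genes; 0 by DESeq2's Wald test and by voom, beside 4.42% and 2.79%), beside 2.46% of all genes tested. Cox7a2 (chr9:79755361-79759878, minus strand) was at 106, 98.8, 105, 104 and 112 CPM on the LFD and at 81.1, 83.0, 90.7, 93.2 and 96.4 CPM on the HFD. Every mouse on the HFD lay below every mouse on the LFD (log2 fold change -0.24, SE 0.06, 95% CI -0.37 to -0.11, adjusted p = 0.0465). In WT mice Cox7a2 was at 112, 113, 110, 118 and 109 CPM on the LFD and at 98.4, 97.2, 89.9, 94.7 and 114 CPM on the HFD, where 1 mouse of 5 on the HFD lay inside the LFD range. Cox7a2l differed between the diets by -0.23 in Adn-Lpin1-/- mice (adjusted p = 0.0270), and its HFD values given above all lay below its LFD values. Cox7a2 and Cox7a2l lost the call in 11 and 4 of the 20 fits that left out 1 mouse. For Cox7a2l these were the fits without Adn-Lpin1-/- mouse 3 or 4 on the LFD and mouse 1 or 3 on the HFD (adjusted p up to 0.0798). For Cox7a2 they were the fits without any 1 of the 5 Adn-Lpin1-/- mice on the LFD, without Adn-Lpin1-/- mouse 1, 2 or 3 on the HFD, and without WT mouse 1 on the LFD or WT mouse 1 or 2 on the HFD (adjusted p up to 0.121).

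Over the 90 nuclear members, 74 had a value below 0 for the diet in WT and 71 in Adn-Lpin1-/- mice, with medians of -0.09 in each, beside 0.00 and 0.01 over all genes. All 13 tested complex IV members had a value below 0 in both genotypes, and of the 17 ATP synthase members 16 in WT and 17 in Adn-Lpin1-/- mice. These are counts of signs, not of calls, and the members share each library's scaling. On library totals without TMM the median of all genes moved by 0.02 in WT and by 0.05 in Adn-Lpin1-/- mice. Values near 0 could therefore change sign. The nuclear share of all counts differed between the diets by -0.0133 percentage points in Adn-Lpin1-/- mice (pooled SD 0.0443). Mice did not overlap for 4 nuclear members in WT (Uqcr10, Atp5g3, Atp5mpl and Ndufs3), beside 3.73% of all genes tested, and for 4 in Adn-Lpin1-/- mice (Cox7a2, Cox7a2l, Ndufc2 and Sdhd), beside 4.06%. The mitochondrial medians were -0.01 in WT and -0.10 in Adn-Lpin1-/- mice.

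No member was called for a difference of the genotype effect between diets, as 0% of all genes tested were. At an unadjusted p under 0.05 there were 2 nuclear members, no mitochondrial gene and 938 of all genes (7.19%). DESeq2's Wald test and voom called 0 members, beside 0.230% and 0% of all genes.

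The intervals show what sizes the data leave room for. The half-width of the 95% interval of a log2 fold change had a median of 0.15 over the nuclear and 0.20 over the mitochondrial members. The whole interval lay within 0.5 of 0 for 86, 87, 86 and 86 of 90 nuclear members (genotype on the LFD and HFD, diet in WT and in Adn-Lpin1-/- mice). It did so for 12, 11, 12 and 11 of 13 mitochondrial genes, and all 13 lay within 1 in each comparison. Large values with wide intervals belonged to weakly counted members, such as the pseudogene Ndufb4c on the HFD (-0.61, adjusted p = 0.161) and Ndufa4l2 on the LFD (-0.34, adjusted p = 0.224).

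Promoters of 2 nuclear members are shown, Atp5j as the member that held all 3 motifs sought below and Cox7a2l for its call on the HFD. Nuclear respiratory factor 1 (NRF1), GABP (an ETS factor, whose alpha subunit is Gabpa) and YY1 are known to bind promoters of many oxidative phosphorylation genes. Promoters were taken from RefSeq on GRCm38.p6, 250 bases before to 50 bases after the start, for 76 of the 97 nuclear members, and exact matches were sought on both strands. The NRF1 core CGCATGCG was in 11 of 76 (14.5%) against 4.33% of the 9548 tested genes with a promoter and 2.07% of all 27025. The YY1 letters AAGATGGCG were in 8 (10.5%) against 3.70% and 1.64%, and the ETS letters CCGGAAG were in 18 (23.7%) against 19.97% and 9.93%. Atp5j, a stalk subunit of ATP synthase, held all 3. Of its 2 start sites the window with the most motifs was taken, so these matches follow from the choice of gene and window. Its window is chr16:84834927-84835226 on the minus strand, with the matches in capitals, and the start of Gabpa on the other strand lies 51 bases away.
Atp5j: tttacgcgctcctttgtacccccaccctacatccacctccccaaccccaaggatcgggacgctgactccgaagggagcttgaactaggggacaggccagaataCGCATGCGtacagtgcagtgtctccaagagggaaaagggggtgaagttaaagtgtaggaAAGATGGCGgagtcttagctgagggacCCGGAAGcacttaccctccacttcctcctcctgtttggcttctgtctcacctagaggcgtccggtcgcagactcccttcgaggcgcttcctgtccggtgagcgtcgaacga
The RefSeq promoter window of Cox7a2l, the member called on the HFD under each alternative, is chr17:83514284-83514583 on the minus strand. It held none of the 3 motifs, which says only that these letters are not in this window. The window lies inside the gene as placed above, and the gene's annotated 5' end was not examined.
Cox7a2l: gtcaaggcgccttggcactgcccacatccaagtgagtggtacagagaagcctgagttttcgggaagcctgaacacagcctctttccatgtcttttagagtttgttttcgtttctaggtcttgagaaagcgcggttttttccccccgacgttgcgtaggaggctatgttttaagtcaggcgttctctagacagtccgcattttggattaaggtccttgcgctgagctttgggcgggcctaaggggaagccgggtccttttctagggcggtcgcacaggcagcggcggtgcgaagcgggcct
The windows of Cox7a1, Cox7a2 and Uqcr10 also held none of them.

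Of 12 nuclear regulators listed, 10 were tested. On the LFD 1 was called and on the HFD 2, all lower, which is near the 14.4% and 18.6% of all genes called. Gabpa was called on both diets. It averaged 37.4 ± 2.85 CPM in WT and 28.2 ± 1.26 CPM in Adn-Lpin1-/- mice on the LFD (log2 fold change -0.41, adjusted p = 0.000496), and 41.1 ± 3.56 against 30.9 ± 1.69 CPM on the HFD (log2 fold change -0.41, adjusted p = 0.000440). On neither diet did the mice overlap. Yy1 was called lower on the HFD (-0.29, adjusted p = 0.0103) and not on the LFD (-0.17, adjusted p = 0.143). Nrf1 was not called on either diet (-0.17 and -0.21, adjusted p = 0.388 and 0.239). The partner gene of Gabpa at that start, Atp5j, was not called on the LFD (-0.16, adjusted p = 0.237) or the HFD (-0.13, adjusted p = 0.317), and the 2 genes share 397 of the 3130 exonic bases of Atp5j, so reads there cannot be placed without strand. No regulator was called for diet.

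Genes that serve the mitochondrial genome are given beside the 14.4% (LFD) and 18.6% (HFD) of all genes called, and no test against these shares was made. Of 30 tested genes for transcription, replication and RNA handling of mitochondrial DNA, 1 (3.33%, on the LFD) and 5 (16.7%, on the HFD) were called, all lower. The HFD share was near that of all genes. Lrpprc, which stabilizes mitochondrial mRNA, was called on both (153 ± 6.77 against 130 ± 6.63 CPM on the LFD, log2 fold change -0.24, adjusted p = 0.00477, and 136 ± 5.00 against 121 ± 6.08 CPM on the HFD, -0.17, adjusted p = 0.0262). Tfam, which packages mitochondrial DNA and starts its transcription, averaged 37.4 ± 1.84 CPM in WT and 30.8 ± 1.49 CPM in Adn-Lpin1-/- mice on the HFD (-0.28, adjusted p = 0.0142). The others were Trmt10c (-0.36, adjusted p = 0.00748), Tefm (-0.34, adjusted p = 0.0423) and Mtpap (-0.30, adjusted p = 0.0435), which process, elongate and polyadenylate mitochondrial RNA. Of 76 mitochondrial ribosome genes, 2 were called higher (Mrpl16 0.28 and Mrpl38 0.43) and 3 lower (Mrpl9 -0.22, Mrpl15 -0.29 and Mrps9 -0.25) on the LFD, 6.58% in all. On the HFD 10 (13.2%) were called, all lower, led by Mrpl50 (-0.28, adjusted p = 0.00320) and Mrpl9 (-0.23, adjusted p = 0.00719). No gene was called for a difference between the diets. The related lists, here and in the paragraphs before and after, are given from the TMM-scaled fit only. On library totals the median of all genes moved by 0.09 on the LFD and 0.13 on the HFD. Small lower values in these lists may thus depend on the scaling.

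Of 41 other electron carriers and assembly factors, 3 were called higher on the LFD (Cox19 0.31, Cox15 0.29 and Coq7 0.25) and 2 lower on the HFD (Sdhaf2 -0.20 and Etfa -0.14), which is 7.32% and 4.88% beside 14.4% and 18.6% of all genes. None of the 13 citric acid cycle genes was called in any comparison. Of 21 genes for import, membrane and uncoupling, 1 was called higher and 2 lower on the LFD and 2 higher and 6 lower on the HFD. These are 14.3% of the list on the LFD, beside the 14.4% of all genes, and 38.1% on the HFD, beside 18.6%. The lists were chosen with earlier results known, and no test of this difference was made. Tomm70a, an import receptor, was called lower on both (-0.22, adjusted p = 0.0393, and -0.31, adjusted p = 0.00530). The chaperones Hspa9 (-0.22) and Hspd1 (-0.20), which fold imported proteins, were called lower on the HFD, as was Tomm22 (-0.29), and the ADP/ATP carrier Slc25a4 was called higher (0.63, adjusted p = 0.0483). Ucp2, an uncoupling protein relative that immune cells express strongly, averaged 35.6 ± 6.99 CPM in WT and 60.7 ± 16.6 CPM in Adn-Lpin1-/- mice on the LFD (log2 fold change 0.77, adjusted p = 0.0343), and 38.4 ± 3.77 against 88.9 ± 38.9 CPM on the HFD (1.21, adjusted p = 0.00220). The 4 Kupffer cell and macrophage markers, mostly Clec4f, summed to 58.4 to 106 CPM in WT and 76.3 to 138 CPM in Adn-Lpin1-/- mice on the LFD, where the mice overlapped. On the HFD they summed to 69.8 to 87.6 CPM in WT and 89.1 to 171 CPM in Adn-Lpin1-/- mice. Clec4f, Cd68 and Vsig4 were called higher on the HFD and not on the LFD, and Adgre1 was called on neither. The part of these markers in the Ucp2 result was not tested. For diet in Adn-Lpin1-/- mice, Taco1 was called higher, and Mrpl54, Mrps36 and Vdac2 lower, beside 2.46% of all genes.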

How the data were processed

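RNA from 24 mouse livers (20 single mice and 4 pools) was poly-A selected, copied with random hexamers and sequenced. Per the labels, the authors aligned reads with STAR 2.5.1a to GRCm38 and assigned them to Ensembl genes with featureCounts 1.4.6-p5 (bcl2fastq and Subread are also named); a strand setting is not given in the sources used here. The deposited count is the number of uniquely aligned, unambiguous reads per gene. The deposited CPM and RPKM columns, which the authors scaled by library size and gene length, were not used. Symbols were matched by Ensembl identifier (97.5% of 41388 genes).

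The members and all gene lists were chosen with earlier results of these data known. In R 4.3.3, edgeR 4.0.16 fitted group means by quasi-likelihood to the 20 single-mouse libraries (36260187 to 81072794 counts, so low genes carry most counting error). Genes with over 1 CPM in at least 4 libraries were kept (13052, rRNA genes out), with TMM scaling and Benjamini-Hochberg adjustment over all of them, called at 0.05. A printed CPM uses TMM-scaled totals and counts made here. Named members were all mitochondrial and Sdh genes, tissue isoforms with their counterparts, the highest and lowest member per complex and every called member, and up to 5 called genes per related list and comparison. Others were named after their values were seen. Sums, shares and ratios carry no test. Alternatives used DESeq2 1.42.0, limma 3.58.1 voom with quality weights (the study's test, with and without the pools), other filters and scalings, GC and length trends removed, a replicate block, annotated copies added, and each mouse left out. The code was tested on simulated data. Shared sequence was counted as exact 50-base stretches; promoters and copies were read from the reference tables with Python 3.11.15, pandas 2.3.3 and numpy 2.4.6, and plots were drawn with matplotlib 3.10.9. Replicate numbers did not pair the mice.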

Additional observations from a re-analysis of the deposited data

Results flagged for a closer look

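Values by mouse were screened within each group for the 41 named members and not for all 110. In 5 of the 155 sets of 5 mice that had any spread, 1 mouse stood so far from the other 4 that its gap passed Dixon's 95% critical value. Chance flags about 1 group in 20, so this number of flags is below what chance gives. mt-Atp8, a small subunit of ATP synthase, was at 9.66 CPM in WT mouse 5 on the HFD while the other 4 were at 29.8 to 35.1 CPM. mt-Atp6, which shares its transcript, was at 248 CPM in WT mouse 2 on the HFD against 310 to 325 CPM in the others, so the low mouse was not the same for both genes. In WT mouse 5 on the LFD, Sdha was at 546 CPM against 449 to 462 CPM, and Atp5a1 was at 1176 CPM against 958 to 1007 CPM. Cox6b2, a testis form that did not pass the limit on counts, was at 0.298 CPM in WT mouse 3 on the LFD against 0.0247 to 0.103 CPM. None of the 12 sets for the shares of the genomes and their ratio was so marked. No member's genotype effect was called different between the diets.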

How the results depend on the processing

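Counts of called members were small and moved with the test. Nuclear members on the LFD numbered 1; they were 2 by DESeq2's Wald test, 7 by voom, 17 by voom with the pools, 0 with no filter, 4 with the GC trend removed and 3 on library totals, beside 17.2%, 16.99%, 31.8%, 4.87%, 12.7% and 16.5% of all genes. On the HFD the 1 nuclear call became 5 by the Wald test, 23 by voom with the pools, 5 with edgeR's default filter, 2 with the replicate block, 4 with the GC or the length trend removed and 8 on library totals (7 of them higher), beside 22.3%, 36.3%, 14.7%, 15.4%, 16.1% (GC), 19.2% (length) and 24.3% of all genes. For diet in WT, the 1 nuclear call became 2 by the Wald test, 6 by voom, 24 by voom with the pools, and 0 with no filter, with the default filter or with only the 2 groups compared, beside 3.06%, 5.13%, 14.7%, 0.376%, 0.759% and 0.552%. For diet in Adn-Lpin1-/- mice, 2 became 5 by the Wald test, 14 by voom with the pools, 1 with the default filter, and 0 with no filter, the 2 groups alone, the replicate block, the length trend removed or library totals, beside 4.42%, 17.7%, 1.54%, 0.787%, 1.23%, 1.64%, 2.24% and 2.73%. The same shares stand beside the mitochondrial counts, with 6.53% (no filter) and 19.1% (copies added) on the HFD. Mitochondrial calls on the LFD went from 0 to 1 by the Wald test or voom, 3 by voom with the pools and 3 with the GC trend removed (mt-Atp6, mt-Nd1 and mt-Nd6, higher). On the HFD they went from 1 to 2 by the Wald test, 5 by voom with the pools, and 0 with no filter, the replicate block, the GC or length trend removed, library totals or copies added. The pools repeat RNA of the same mice, and the cause of the other changes was not tested. Library totals, the copies and the 2 settings on the ratio that use them or only little-shared genes were chosen after seeing the data.

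With single mice left out, nuclear calls ranged over 0 to 5 on the LFD (5 without Adn-Lpin1-/- mouse 1), 1 to 7 on the HFD (7 without Adn-Lpin1-/- mouse 4), 0 to 2 for diet in WT and 0 to 3 for diet in Adn-Lpin1-/- mice (3 without WT mouse 5 on the LFD). Mitochondrial calls ranged over 0 to 1 on each diet and stayed at 0 otherwise. Cox7a2l on the HFD kept its direction and call in all 33 alternatives, whereas Cox7a1 on the LFD lost the call in 9 of 33, Uqcr10 for diet in WT in 10, Cox7a2 and Cox7a2l for diet in Adn-Lpin1-/- mice in 17 and 9, and mt-Nd3 on the HFD in 16. With 1 mouse left out, differences between group means of the log2 ratio of the genomes also moved. They ranged from -0.05 to 0.02 and -0.12 to -0.07 for genotype on the LFD and HFD. For diet in WT and Adn-Lpin1-/- mice they ranged from 0.03 to 0.08 and -0.06 to 0.01. Replicate numbers gave no pairing: 6 of 30 same-numbered pairs correlated over 0.1 (range -0.415 to 0.281). With the replicate block, mt-Nd3 on the HFD was -0.35 (adjusted p = 0.0591).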
